A study of Mus musculus with 2 samples.

Results

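The T cell receptor beta chain is encoded by the Trb locus, and its variable segments and constant genes were followed here in mouse thymus cells. The genes were the features named Trbv with a number, 35 in all, with the constant genes Trbc1 and Trbc2. These are 37 of the 32285 features counted. They were taken by name and not by a cut on their values, though the set was chosen with earlier results of these data known. The study sorted YFP+ thymocytes. Its control library came from Tbx21Cre Rosa26-YFP+ mice and its cKO library from Tbx21Cre Ets1F/F Rosa26-YFP+ mice, so the 2 libraries share the Cre and the reporter and differ in the floxed Ets1 allele. Ets1 is an ETS family transcription factor of lymphocytes, and Tbx21 encodes T-bet, so a cell of any type that has made T-bet at some time carries YFP. Each library pooled 2 mice, and the labels state no age for them. There is 1 library per genotype, so no test between genotypes was possible: a difference is between these libraries, and every interval is an exact 95% interval for counting error alone.

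A beta chain is assembled in the thymus by joining a variable, a diversity and a joining segment, and RNA splicing adds the exons of Trbc1 or Trbc2. A conventional T cell population carries many variable segments. Invariant natural killer T (iNKT) cells instead carry an alpha chain built on Trav11 and, in mice, beta chains that mostly use Trbv13-2, Trbv29 or Trbv1, known to immunologists as V beta 8.2, 7 and 2. These 3 segments are called the iNKT trio below. CD8 T cells carry the coreceptor of which Cd8b1 encodes the beta chain.

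The V exons of the trio and of Trbv12-2, the most called segment outside the trio, are shown because these 4 carry most of the calls described below. They are read 5′ to 3′ from GENCODE vM21 on GRCm38, plus strand. Capitals mark the stretch to the end of the exon from the last in-frame cysteine codon that follows a tyrosine or phenylalanine codon. This is the germline start of the CDR3 loop, which can touch antigen.
Trbv13-2: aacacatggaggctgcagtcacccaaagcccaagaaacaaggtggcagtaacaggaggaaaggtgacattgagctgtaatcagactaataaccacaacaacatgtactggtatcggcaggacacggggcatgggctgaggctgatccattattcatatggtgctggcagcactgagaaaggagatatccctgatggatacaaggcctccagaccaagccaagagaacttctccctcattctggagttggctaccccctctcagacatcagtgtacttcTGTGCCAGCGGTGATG
Trbv29: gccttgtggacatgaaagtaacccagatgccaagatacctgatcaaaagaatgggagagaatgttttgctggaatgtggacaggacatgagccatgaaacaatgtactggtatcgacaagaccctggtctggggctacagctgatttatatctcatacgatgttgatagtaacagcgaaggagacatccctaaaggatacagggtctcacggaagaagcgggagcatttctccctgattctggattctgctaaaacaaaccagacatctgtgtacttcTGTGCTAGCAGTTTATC
Trbv1: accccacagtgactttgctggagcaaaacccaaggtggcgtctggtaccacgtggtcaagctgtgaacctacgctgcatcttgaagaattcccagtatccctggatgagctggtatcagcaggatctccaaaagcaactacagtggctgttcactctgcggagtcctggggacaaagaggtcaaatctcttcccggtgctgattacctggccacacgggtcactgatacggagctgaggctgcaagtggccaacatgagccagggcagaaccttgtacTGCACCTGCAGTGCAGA
Trbv12-2: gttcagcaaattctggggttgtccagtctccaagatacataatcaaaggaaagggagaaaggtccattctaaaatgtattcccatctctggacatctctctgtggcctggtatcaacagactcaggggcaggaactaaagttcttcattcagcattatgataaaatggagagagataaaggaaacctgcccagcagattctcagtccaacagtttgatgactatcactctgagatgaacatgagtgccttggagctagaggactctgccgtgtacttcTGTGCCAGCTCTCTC
The Trbv13-2 exon lies at chr6:41121539-41121832 and that of Trbv29 at chr6:41271587-41271881. The Trbv1 exon lies at chr6:40891591-40891885 and that of Trbv12-2 at chr6:41119072-41119364. In each of them the exon shown is coding sequence of the variable gene. The trio is not a sequence family: Trbv13-2 was 66.1% identical to Trbv29 and 53.3% to Trbv1 over the exon. Trbv13-2 was 88.8% identical to Trbv13-1 and 91.8% to Trbv13-3. Over the whole annotated transcripts the longest shared run was 34 and 50 bases. Counts could thus be split between the Trbv13 genes and are uncertain to that extent. Trbv12-2 was 89.1% identical to Trbv12-1 and 55.2% to Trbv13-2. The annotated Trbv12-2 gene ends 2.032 kb before that of Trbv13-2 begins. Trbc1 and Trbc2 lie 6.849 kb apart and were 95.6% identical over their coding sequence, but 53.3% after it, where reads from the 3' end of a transcript fall. Trbv31 lies on the minus strand, downstream of Trbc2.

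The deposited matrices held 10102 control and 11206 cKO barcodes with 35210431 and 39979742 UMIs (unique molecular identifiers, each standing for 1 captured RNA molecule). After filters on genes and mitochondrial UMIs, 7395 control and 5903 cKO cells were kept, at a median of 2666 and 5533 UMIs. The mitochondrial limit alone was exceeded by 6.76% of control and 28.6% of cKO barcodes. Cells were put in 3 T cell classes that do not use any beta chain gene. Cells with a Trav11 UMI (Trav11+) numbered 178 in control and 149 in cKO, cells with Cd8b1 and no Trav11 (Cd8b1+) 905 and 625, and cells with a CD3 gene but neither of these (other CD3+) 6072 and 2837. The remaining 240 control and 2292 cKO cells had none of these genes (CD3-). Ets1 levels in the cells of the T classes were 498 CPM (UMIs per 1000000 UMIs) for control and 169 CPM for cKO. The labels do not say which exons the floxed allele spans, so these 3' counts check the genotype only in part. The libraries shared 29 barcodes, 14 of them kept in both and 0 with a called segment in both.

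Marker levels matched the class names in part. The summed level of 8 iNKT genes was 1380 and 1358 CPM in control and cKO Trav11+ cells, 746 and 663 CPM in Cd8b1+ cells, and 1191 and 1168 CPM in other CD3+ cells. Trav11, which defines the first class, is 1 of these 8. Without it, the other 7 summed to 1214 and 1217 CPM in Trav11+ cells, with no change in the other classes, and to 1033 and 237 CPM in CD3- cells. The CD3- cells of the 2 libraries were unlike. In them 6 gut epithelium genes summed to 6.16 CPM in control and 39014 CPM in cKO. The gut gene Epcam was found in 2.5% and 74.7% of them, and the NK cell gene Ncr1 in 42.5% and 2.27%. Values of this class thus do not compare like cells. Since classes were set by captured UMIs, cells whose Trav11 RNA was not captured fall in the other classes. The 6 CD8 T cell genes summed to 1514 and 3089 CPM for control and cKO Cd8b1+ cells, where Cd8a had 369 and 977 CPM. The control Cd8b1+ class thus had less Cd8a than the cKO class. Of the iNKT genes, control Cd8b1+ cells had more Klrb1c (43.0 and 5.75 CPM), Il2rb (320 and 243), Cd44 (77.9 and 45.3) and Zbtb16 (12.2 and 8.29). They had less Slamf6 (55.5 and 101 CPM), Cxcr3 (185 and 201) and Tbx21 (52.3 and 57.9). Klrb1c was also lower in cKO in Trav11+ cells (191 and 13.5 CPM) and other CD3+ cells (171 and 23.9), so its difference is not particular to Cd8b1+ cells. A Cd8b1 UMI was also found in 13 control and 10 cKO Trav11+ cells. The Trav11 V exon was 99.7% identical to that of its copy Trav11d, which makes Trav11 counts uncertain.

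Variable segment RNA was sparse. Over the T cell classes 895 Trbv UMIs were counted in control and 933 in cKO, against 81947 and 62394 Trbc UMIs. The 16 diversity and joining features had 0 UMIs in either library. Of the 35 variable segments 23 were detected, and 12 had 0 UMIs in both libraries, 11 of them annotated pseudogenes. The other was Trbv21, named here after its values were seen. In all, GENCODE vM21 annotates 22 of the segments as TR_V_gene and 13 as pseudogenes. A segment was found in 762 control and 714 cKO T cells, and a cell was called by the segment with most UMIs. That gave 732 called control cells and 676 called cKO cells, with 30 and 38 ties left out.

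The iNKT trio took the larger part of Trav11+ calls in both libraries, though the control interval also holds a minority. Trbv13-2, Trbv29 or Trbv1 was called in 18 of 30 control Trav11+ cells (60%, interval 40.6 to 77.3) and in 23 of 29 cKO cells (79.3%, 60.3 to 92.0). In Cd8b1+ cells the trio took 37 of 106 control calls (34.9%, 25.9 to 44.8) and 35 of 166 cKO calls (21.1%, 15.1 to 28.1). Within each library the trio was thus used more in Trav11+ than in Cd8b1+ cells. The odds ratio was 2.77 in control (1.13 to 7.07) and 14.1 in cKO (5.09 to 45.7). A difference was called where an odds ratio was at least 1.5 in either direction and its interval left out 1, which both meet. With cells of at least 3000 UMIs alone, the control odds ratio was 2.51 and its interval took in 1 (0.997 to 6.53).

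By share, other CD3+ cells stood between the named classes in both libraries. In cKO they differed from both classes by the rule, but in control only from Cd8b1+ cells. In control the trio made up 317 of 596 calls (53.2%, 49.1 to 57.3), and in cKO it made up 233 of 481 (48.4%, 43.9 to 53.0). Against Cd8b1+ cells, the odds of the trio were 2.12-fold higher in control (1.35 to 3.36) and 3.51-fold higher in cKO (2.29 to 5.48). Trav11+ cells exceeded other CD3+ cells in cKO, with an odds ratio of 4.07 (1.57 to 12.4). In control the odds ratio was 1.32 and its interval, 0.589 to 3.06, holds both no difference and a near 3-fold one. In the other CD3+ cells that held a UMI of a Trav segment other than Trav11, the trio share was lower, at 17 of 47 calls in control (36.2%, 22.7 to 51.5) and 23 of 78 in cKO (29.5%, 19.7 to 40.9).

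**Figure D1:**
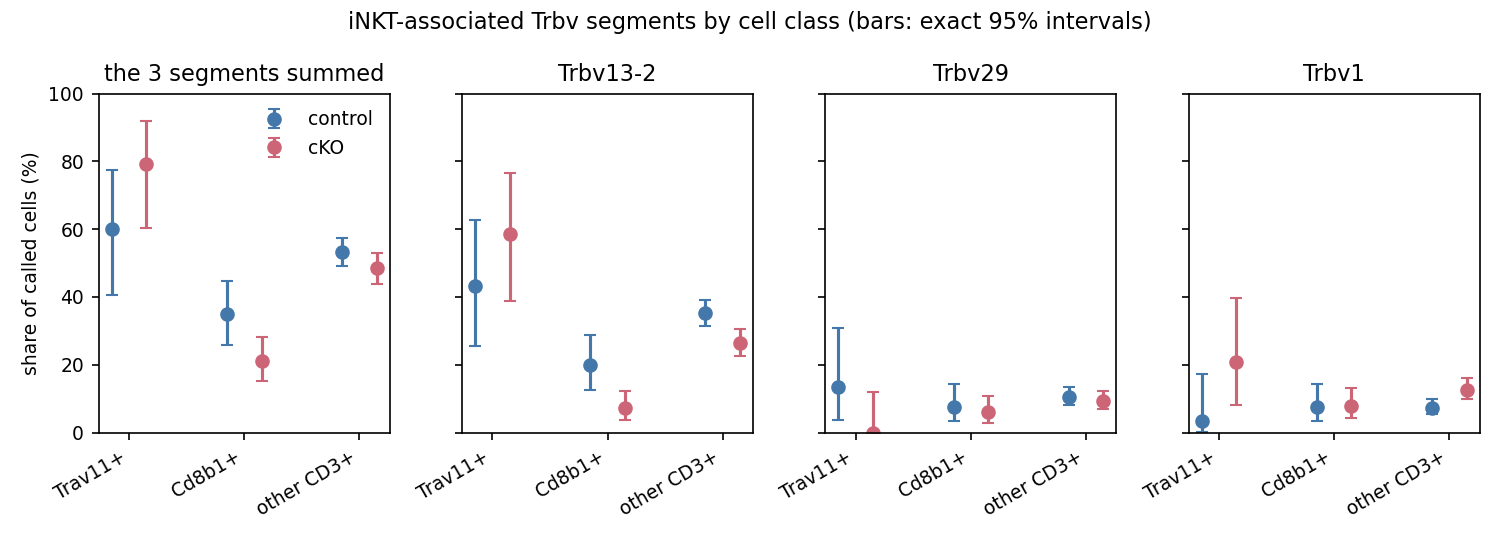
Share of called cells (y axis, %) using the 3 iNKT segments summed and each of Trbv13-2, Trbv29 and Trbv1, by cell class (x axis), control in blue and cKO in red, with points for shares and bars for exact 95% intervals. The summed share is 60% and 79.3% in Trav11+ cells against 34.9% and 21.1% in Cd8b1+ cells, and Trbv13-2 carries most of that difference.

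Of the trio, Trbv13-2 carried the bias. It was called in 13 of 30 control (43.3%, 25.5 to 62.6) and 17 of 29 cKO Trav11+ cells (58.6%, 38.9 to 76.5). In Cd8b1+ cells it was called in 21 of 106 (19.8%) and 12 of 166 (7.23%). The odds ratio of Trbv13-2 in Trav11+ over Cd8b1+ cells was 3.07 in control (1.17 to 7.97) and 17.7 in cKO (6.39 to 51.9).

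Trbv29 was called in 4 of 30 control Trav11+ cells (13.3%, 3.76 to 30.7) and in 0 of 29 cKO ones, which allows a share of up to 10.3%. In Cd8b1+ cells it took 7.55% and 6.02% of calls, and in other CD3+ cells 10.6% and 9.36%. No difference in Trbv29 between classes or libraries was called at this depth. Its odds ratio for Trav11+ over Cd8b1+ cells was 1.87 in control, with an interval of 0.383 to 7.68. In cKO it was 0, with an upper bound of 2.56.

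Trbv1 was called in 1 of 30 control and 6 of 29 cKO Trav11+ cells (3.33% and 20.7%). The odds ratio of cKO over control was 7.34, with an interval of 0.803 to 360 that does not leave out 1. Over Cd8b1+ cells, the odds ratio of Trbv1 in Trav11+ cells was 0.425 in control (0.00921 to 3.39) and 3.05 in cKO (0.862 to 9.69). An enrichment of Trbv29 or of Trbv1 in Trav11+ cells was thus not detectable with 30 and 29 called cells.

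Outside the trio, Trav11+ cells used few segments. Trbv12-2 was called in 6 control and 2 cKO Trav11+ cells, Trbv13-1 in 2 and 2, and Trbv13-3 in 1 and 0. Trbv19 was called in 2 and 1, Trbv24, annotated as a pseudogene, in 1 and 0, and Trbv14 in 0 and 1. Calls fell on 8 segments in control and 6 in cKO, against 20 and 20 in Cd8b1+ cells, which have more called cells. Segments other than the trio, the Trbv13 genes and Trbv12-2 took 10.0% and 6.90% of Trav11+ calls. They took 46.2% and 55.4% of Cd8b1+ calls.

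**Figure D2:**
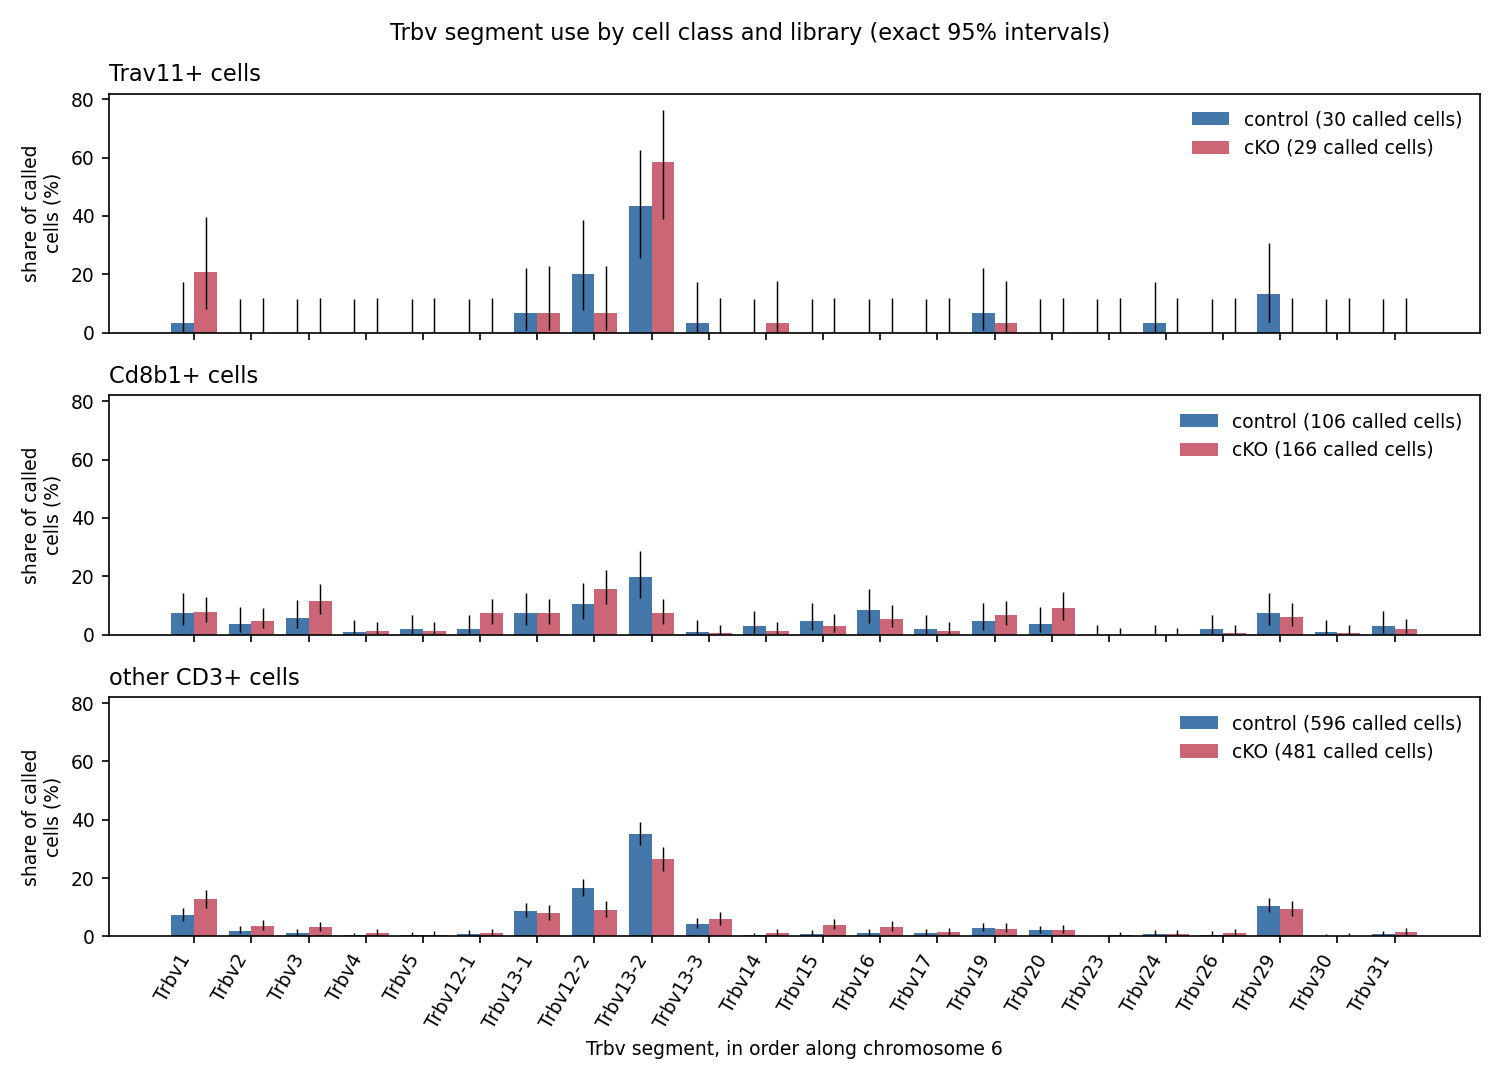
Share of called cells (y axis, %) for each of the detected segments with a called cell, in chromosome order (x axis), in Trav11+, Cd8b1+ and other CD3+ cells, control in blue and cKO in red, with bars for shares and lines for exact 95% intervals. Trbv13-2 is the highest bar in Trav11+ and other CD3+ cells of both libraries and in control Cd8b1+ cells, while Trbv12-2 is the highest bar in cKO Cd8b1+ cells.

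Between libraries, the segments of Trav11+ cells showed no called difference: 0 of the 3 segments with at least 5 called cells over both libraries (0%). The trio odds ratio of cKO over control was 2.51 there (0.705 to 9.88), and that of Trbv13-2 was 1.83 (0.586 to 5.91). Intervals of that width hold both no difference and a several-fold one.

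In Cd8b1+ cells, 1 of 14 segments compared (7.14%) was called different. Trbv13-2 fell from 19.8% of control calls to 7.23% of cKO calls (interval 3.79 to 12.3), an odds ratio of 0.317 (0.135 to 0.713). The trio as a whole was lower too, with an odds ratio of 0.4996 (0.278 to 0.894). Both calls rest on how the class is drawn and on how segments are counted. With the share of Trbv UMIs in place of called cells, Trbv13-2 stood at 0.707 (0.386 to 1.32) and the trio at 0.628, neither called. With a Cd8a UMI also required, an alternative added after the data were seen, the trio odds ratio was 0.539 with an interval to 1.11 and 0 segments were called different, Trbv13-2 standing at 0.433. With at least 2 UMIs of Cd8b1 the trio was at 0.520, with an interval to 1.06, and Trbv13-2 at 0.443, also not called. Under that setting 1 segment was called different, as higher in cKO: Trbv12-2, in 5 control and 26 cKO cells, an odds ratio of 3.16 (1.12 to 11.04).

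Other markers moved with the library in this class. The 6 B cell genes summed to 219 and 447 CPM in control and cKO Cd8b1+ cells, with 0 of 6 at 0 in both. The 6 gut epithelium genes summed to 7.71 CPM, with 2 of 6 at 0, and 103 CPM, with 0 of 6 at 0. The 5 genes of double-positive thymocytes, the precursors with both coreceptors, summed to 85.6 and 177 CPM with 0 of 5 at 0, and the 2 hemoglobin genes to 441 and 1.52 CPM. In control Cd8b1+ cells the hemoglobin UMIs came from few cells, Hbb-bs from 0.663% and Hba-a1 from 0.552%. The hemoglobin sum was also lower in cKO in Trav11+ cells (182 and 0.792 CPM) and other CD3+ cells (159 and 1.25 CPM). The part of all these markers in the segment shares and in the levels of this class was not tested. With the cells of the top 5% of UMIs and those with Cd79a left out, the odds ratio of Trbv13-2 was 0.214 (0.0640 to 0.631) and that of the trio 0.462 (0.224 to 0.949), both still called.

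The other segments of Cd8b1+ cells are given as values. Trbv12-2 was called in 11 control and 26 cKO cells (10.4% and 15.7%), Trbv3 in 6 and 19, and Trbv20 in 4 and 15. Trbv12-1 was called in 2 and 12 cells, Trbv1 in 8 and 13, Trbv13-1 in 8 and 12, and Trbv13-3 in 1 and 1. Trbv16 was called in 9 and 9, Trbv19 in 5 and 11. Their odds ratios ranged from 0.619 for Trbv16 to 4.04 for Trbv12-1 (0.871 to 37.9), Trbv13-3 not compared, and each interval took in 1.

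Other CD3+ cells had the largest number of called cells, and 6 of 20 segments compared (30%) were called different. Trbv13-2 went from 210 of 596 control cells (35.2%) to 127 of 481 cKO cells (26.4%), an odds ratio of 0.660 (0.502 to 0.865). Trbv12-2, its neighbour on the chromosome, went from 99 cells (16.6%) to 44 (9.15%), an odds ratio of 0.506 (0.338 to 0.747). Both were thus lower in cKO. Trbv13-2 met the size by little, and fell short of it with no filter on cells (0.669), at 3000 UMIs or more (0.670) and with mitochondrial UMIs at most 5% (0.687). Doublets were not removed, and with the cells of the top 5% of UMIs and those with Cd79a left out it was at 0.677, also short of the size.

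The other 4 were higher in cKO. Trbv1 went from 44 cells (7.38%) to 61 (12.7%), an odds ratio of 1.82 (1.19 to 2.81), so within the trio Trbv1 and Trbv13-2 moved in opposite directions. Trbv15 was called in 6 and 19 cells, an odds ratio of 4.04 (1.54 to 12.5). Trbv3 was called in 7 and 15, an odds ratio of 2.71 (1.03 to 7.91). Trbv16 was called in 8 and 16, an odds ratio of 2.53 (1.01 to 6.88). These last 3 rest on few cells. With 3000 UMIs or more per cell, the intervals of Trbv3 (2.90) and Trbv16 (2.36) took in 1. That of Trbv3 also did so with the top 5% of UMIs and Cd79a+ cells left out (2.24, 0.821 to 6.69) and with mitochondrial UMIs at most 5% (2.01).

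The members of the Trbv13 family did not move together in other CD3+ cells. Trbv13-1 was called in 53 control and 38 cKO cells, an odds ratio of 0.879 (0.553 to 1.39), and Trbv13-3 in 26 and 29, an odds ratio of 1.41 (0.787 to 2.52). Trbv29 had 63 and 45 cells, an odds ratio of 0.873 (0.570 to 1.33). None of these 3 was called. The trio as a whole was not called either, at 0.827 (0.645 to 1.06).

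The same segments were read in cells with and without Cd4, the gene of the other T cell coreceptor. Whether a difference between libraries itself differs between these subsets was not tested. Of other CD3+ called cells, 94 in control and 110 in cKO held a Cd4 UMI. Among them Trbv15 was called in 0 control cells, which allows up to 3.19%, and in 13 cKO cells (11.8%). Trbv3 was called there in 1 and 11 cells, Trbv16 in 4 and 10 (odds ratio 2.24, 0.619 to 10.1), and Trbv13-2 in 29 (30.9%) and 15 (13.6%). Trbv1 was called in 9 and 9 (0.842, 0.282 to 2.51) and Trbv12-2 in 11 and 6 (0.437, 0.127 to 1.35). The trio made up 48.9% of control and 23.6% of cKO calls with Cd4.

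In the 502 control and 371 cKO called cells without a Cd4 UMI, 2 segments were called different. Trbv1 was higher in cKO, at 6.97% and 14.0% (odds ratio 2.17, 1.35 to 3.52). Trbv12-2 was lower, at 17.5% and 10.2% (0.537, 0.347 to 0.818). Trbv13-2 there stood at 36.1% and 30.2% (0.767, 0.569 to 1.03) and Trbv15 at 6 and 6 cells. Trbv16 was called in 4 and 6 (2.04, 0.481 to 9.92). The split by Cd4 was added after the values were seen.

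The levels of each variable segment in CPM were low. None of the 35 reached 10 CPM over the T cells of either library, so none could meet the size rule used for levels (a ratio of at least 1.5 either way, 10 CPM in the higher library and an interval that leaves out 1). Over the same cells 19.4% of the features tested met it, 14.4% as higher in cKO and 4.99% as lower. Trbv13-2 was the highest, with 9.29 CPM for control and 7.32 CPM for cKO. Trbv12-2 stood at 4.66 and 3.57 CPM, Trbv29 at 2.69 and 2.36 CPM, Trbv13-1 at 2.41 and 2.75 CPM, and Trbv1 at 2.00 and 3.64 CPM. These levels are per 1000000 UMIs and are not corrected for gene length, so they are not compared between genes as amounts.

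Variable segment RNA per constant gene RNA was higher in cKO in each class. Trbv UMIs per 100 Trbc UMIs were 1.24 in control and 2.07 in cKO Trav11+ cells, a ratio of 1.67 (1.06 to 2.66). In Cd8b1+ cells they were 1.004 and 1.40, a ratio of 1.39 (1.13 to 1.73). In other CD3+ cells they were 1.10 and 1.51, a ratio of 1.37 (1.23 to 1.52). Summed Trbv itself stood at 28.4 and 29.3 CPM in other CD3+ cells, a ratio of 1.03 (0.927 to 1.15), at 25.8 and 46.4 CPM in Cd8b1+ cells, a ratio of 1.79 (1.45 to 2.22), and at 29.3 and 38.0 CPM in Trav11+ cells, a ratio of 1.29 (0.825 to 2.06).

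Trbc2, the downstream constant gene, was the more abundant of the pair of constant genes in every class. Trbc1 levels in Trav11+ cells were 830 and 711 CPM for control and cKO, a ratio of 0.857 (0.783 to 0.939), and Trbc2 at 1541 and 1125 CPM, a ratio of 0.730 (0.681 to 0.783). In other CD3+ cells Trbc1 had 946 and 807 CPM (0.852, 0.836 to 0.869) and Trbc2 at 1623 and 1137 CPM (0.701, 0.689 to 0.712). In both classes Trbc2 was thus further below its control level than Trbc1.

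In Cd8b1+ cells the constant genes lay the other way. Trbc1 stood at 875 and 1041 CPM, a ratio of 1.19 (1.14 to 1.24), and Trbc2 at 1699 and 2269 CPM, a ratio of 1.34 (1.30 to 1.37). In none of the classes did Trbc1 or Trbc2 meet the size rule, which 21.7% of the features tested met in Trav11+ cells (14.6% as higher, 7.12% as lower), 29.6% in Cd8b1+ cells (22.9% and 6.69%) and 19.1% in other CD3+ cells (13.8% and 5.27%). Under median-ratio scaling, and under a total without mitochondrial and ribosomal protein genes, Trbc2 met it as lower in Trav11+ cells (0.661 and 0.651) and in other CD3+ cells (0.634 and 0.632). The alpha constant gene Trac stood at 846 and 814 CPM in other CD3+ cells, a ratio of 0.962.

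Fewer cKO cells of the other CD3+ class held any Trbc UMI. After thinning each cell to 1500 UMIs, which sets the cells to a common depth, 93.6% of 4176 control and 83.0% of 2731 cKO cells held one, an odds ratio of 0.333 (0.283 to 0.391). The thinning left out 1896 control and 106 cKO cells below that depth. The unthinned shares were 96.3% and 93.8%. In this class 6 gut epithelium genes summed to 6.73 CPM for control, with 1 of 6 at 0, and to 749 CPM for cKO, with 0 of 6 at 0. B cell genes summed to 448 and 789 CPM. A separate thinning to the same depth gave 94.1% and 83.3% over all cells of the class. In that thinning, the shares in cells without a UMI of the gut genes or of the B cell gene Cd79a were 94.8% and 88.5%. In cells with at least 3 CD3 UMIs they were 95.01% and 89.0%.

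In Trav11+ cells the thinned Trbc shares were 91.0% and 82.9%, an odds ratio of 0.482 (0.226 to 0.999) that no longer left out 1 when cells were thinned to 1000 UMIs (0.662, 0.353 to 1.23). In Cd8b1+ cells they were 94.2% and 92.4%, an odds ratio of 0.744 (0.471 to 1.17). Free RNA was judged from CD3- cells with Cd79a, which should lack the receptor. After thinning to 1500 UMIs, 5 of 34 control (14.7%) and 12 of 213 cKO cells of this kind (5.63%) held a Trbc UMI. Unthinned, at median depths of 2529.5 and 2794 UMIs, 24 of 52 (46.2%) and 41 of 305 (13.4%) did.

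Any Trbv UMI was found, after thinning, in 4.82% of control and 3.42% of cKO Trav11+ cells, and in 3.93% and 3.95% of other CD3+ cells. In Cd8b1+ cells the shares were 3.44% and 8.28%, an odds ratio of 2.53 (1.52 to 4.32). Unthinned, they were 12.3% and 29.4% in Cd8b1+ cells, at median depths of 3203 and 8507 UMIs. After thinning, the background cells held a Trbv UMI in 0 of 34 control and 0 of 213 cKO cells, which allows up to 8.82% and 1.41%. The thinned control share in Cd8b1+ cells lies under the first of these limits. Unthinned, 2 of 52 control background cells held one (3.85%, 0.469 to 13.2) and 0 of 305 in cKO, which allows up to 0.984%.

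**Figure D3:**
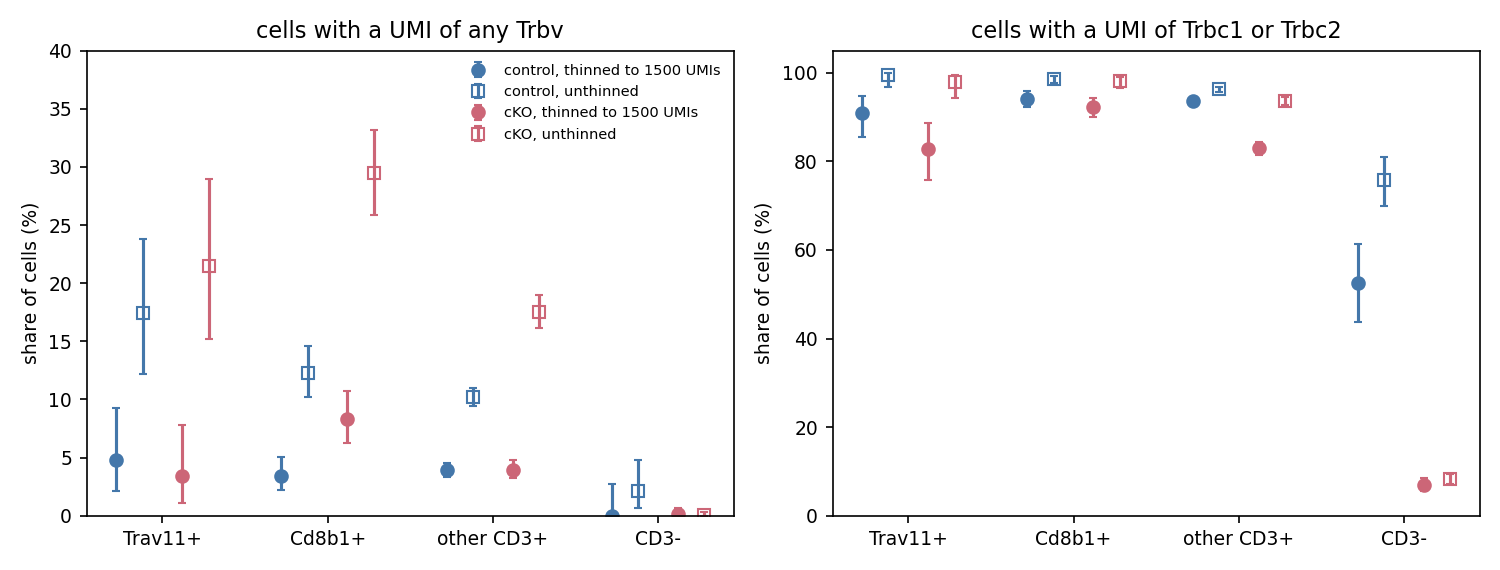
Share of cells (y axis, %) with a UMI of any Trbv segment and of Trbc1 or Trbc2, by cell class with all CD3- cells last (x axis). Control is in blue and cKO in red, filled for cells thinned to 1500 UMIs and open for unthinned cells, with exact 95% intervals. The CD3- cells shown, with thinned Trbc shares of 52.6% and 6.92%, are not limited to the background cells with Cd79a. They are unlike between libraries: the gut gene Epcam was found in 2.5% of control and 74.7% of cKO CD3- cells. The thinned Trbv share differs between libraries in Cd8b1+ cells (3.44% and 8.28%), and the thinned Trbc share differs in other CD3+ cells (93.6% and 83.0%).

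A cell was called Trbc1 or Trbc2 by the constant gene with more UMIs, which need not be the gene its receptor used. The part of free Trbc RNA, or of reads shared between the 2 genes, in these calls was not tested. Trbc1 was called in 53 of 171 control (31.0%) and 54 of 142 cKO Trav11+ cells (38.0%), and in 231 of 820 (28.2%) and 157 of 601 (26.1%) Cd8b1+ cells. In other CD3+ cells it was called in 1668 of 5393 (30.9%, 29.7 to 32.2) and 941 of 2595 (36.3%, 34.4 to 38.1), an odds ratio of 1.27 (1.15 to 1.40) that stays under the 1.5 required. Within cKO, Trbc1 calls were more common in Trav11+ than in Cd8b1+ cells (odds ratio 1.73, 1.16 to 2.59) and in other CD3+ than in Cd8b1+ cells (1.61, 1.31 to 1.98). Within control these odds ratios were 1.15 (0.784 to 1.66) and 1.14 (0.968 to 1.35).

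Many cells held RNA of both constant genes. UMIs of both were found in 4228 of 6917 control and 2068 of 3419 cKO T cells with a Trbc UMI. Among cells with at least 10 Trbc UMIs, Trbc1 made up under 10% in 35.6% of 2865 control and 35.4% of 2210 cKO cells, and 90% or more in 2.55% and 6.70%. Cells with nearly pure Trbc2 were thus far more common than cells with nearly pure Trbc1. The other 61.8% and 57.9% lay between.

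**Figure D4:**
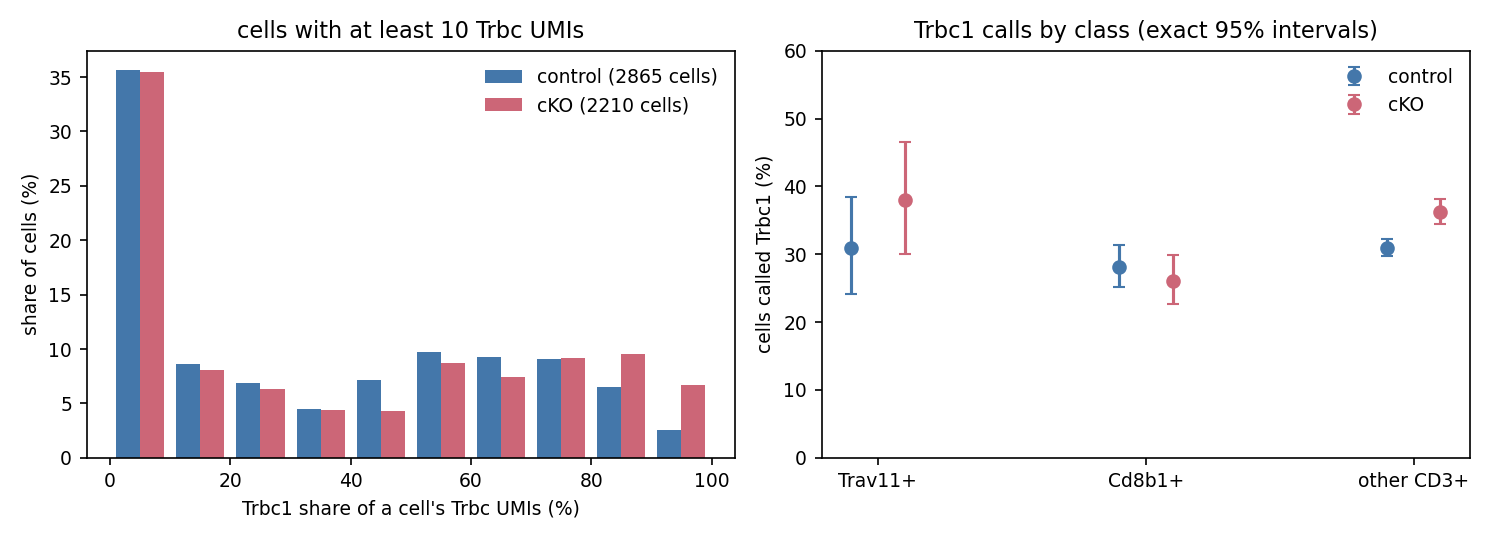
Left, the Trbc1 share of a cell's Trbc UMIs (x axis, %) in cells with at least 10 Trbc UMIs, as the share of cells per bin of 10 points (y axis, %). Right, the share of cells called Trbc1 (y axis, %) by class with exact 95% intervals, control in blue and cKO in red. The lowest bin holds 35.6% and 35.4% of cells and the highest 2.55% and 6.70%.

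The called variable segment was set beside the constant gene call. Cells called Trbv1 were called Trbc1 in 27 of 52 (51.9%, 37.6 to 66.0) and 36 of 80 cases (45.0%, 33.8 to 56.5) in control and cKO. Cells of every other segment together were called Trbc1 in 34.2% and 36.1%. The odds ratio of Trbv1 against the rest was 2.08 in control (1.13 to 3.83) and 1.45 in cKO (0.877 to 2.38). Trbv13-2 cells were called Trbc1 in 40.8% and 44.7%, and Trbv29 cells in 28.4% and 32.7%. Trbv12-2 cells were called Trbc1 in 30% and 29.2%, and Trbv16 cells in 7 of 17 control and 3 of 25 cKO cells.

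The other receptor genes, of signalling, of recombination and of the other chains, were read from a list of 16, all among the features. Of them 3 are gamma chain constant genes, labelled Tcrg-C1, Tcrg-C2 and Tcrg-C4. These are related copies of one another, so reads could be split between them and their counts are uncertain. In Trav11+ cells 11 reached 10 CPM. Of these 2 were higher in cKO, Cd3d, a CD3 chain, at a ratio of 1.55, and Cd247, the CD3 zeta chain, at 1.82, where 14.6% of all features tested were higher. Lower was 1, Tcrg-C1 with 117 and 71.3 CPM (0.609, 0.462 to 0.797), where 7.12% of features were lower. The median log2 ratio of the list was 0.21, against 0.16 over all features.

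In other CD3+ cells 2 of 12 were higher, where 13.8% of features were: Cd247 at 1.73 and Trdc, the delta chain constant gene of gamma-delta T cells, at 27.8 and 66.2 CPM (2.38, 2.18 to 2.61). There 0 of 12 were lower, where 5.27% of features were. Tcrg-C1 stood just short of the size as lower, at 0.672 (0.630 to 0.716), Tcrg-C2 at 0.790 and Tcrg-C4 at 1.15. The median log2 ratio was 0.17, against 0.16 over all features.

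In Cd8b1+ cells 8 of 14 were higher in cKO, where 22.9% of features were, and 1 was lower, where 6.69% were. The median log2 ratio was 0.74 against 0.26. Higher were Cd3e at 1.76, Cd3g at 1.63, Cd247 at 1.96, the adaptor Lat at 1.77, and 2 genes of receptor gene assembly, the recombinase gene Rag1 at 27.8 and 68.5 CPM and the terminal transferase gene Dntt at 34.5 and 59.4 CPM. The other 2 were Tcrg-C2, with 44.9 and 138 CPM (3.06, 2.64 to 3.56), and Tcrg-C4, with 29.9 and 60.2 CPM. Lower was Tcrg-C1, with 35.3 and 15.6 CPM (0.442, 0.339 to 0.570), so the gamma constant genes lay in both directions. The kinases Lck and Zap70 met the size rule in none of the classes.

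Pairs of segments were found in 39 control and 55 cKO T cells with UMIs of at least 2 segments. The pair Trbv12-2 and Trbv13-2 made up 16 of these in control and 12 in cKO. A Trbv13-2 UMI was held by 12.03% of the 133 control cells and 13.2% of the 91 cKO cells with Trbv12-2, against 3.55% and 4.74% of T cells without Trbv12-2. The odds ratios were 3.72 (2.03 to 6.41) and 3.05 (1.48 to 5.77). The V exons of this pair are 55.2% identical, and the longest run shared by their annotated transcripts is 18 bases. The genes lie next to each other, 2.032 kb apart. The same measure gave 0 of 68 and 1 of 54 cells for Trbv13-1 and 2 of 35 and 2 of 37 for Trbv13-3, both close relatives of Trbv13-2. It gave 2 of 56 and 3 of 86 for Trbv1 and 0 of 78 and 1 of 58 for Trbv29. On few cells, 3 of 13 cKO cells with Trbv14 (23.1%) also held Trbv13-2, a larger share than with Trbv12-2. Doublets were not removed, and their part in these pairs was not tested. When cells with both were counted as Trbv13-2, added after the data were seen, none of the trio and segment calls recomputed changed.

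Trbv20 in cKO Cd8b1+ cells went with an alpha segment. Of 15 such cells called Trbv20, 6 held Trav4-4-dv10 (40%, 16.3 to 67.7), against 2 of 151 cells called for another segment (1.32%). In control 0 of 4 and 0 of 102 did. However, only 1 of these 4 and 15 of these 102 control cells held a UMI of any Trav segment, against 8 of 15 and 50 of 151 in cKO. The control cells thus cannot show whether the pairing is absent there. Of the 6 cells, 4 were called Trbc1 and 2 Trbc2. Trbv20 and this pairing were singled out after the values were seen.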

How the data were processed

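Single-cell RNA was measured in 2 libraries, each from 2 pooled mice and made with 3' chemistry per the labels' protocols. The deposited files hold whole-number UMI counts per feature and barcode. The submitters' processing notes name Cell Ranger 2.1.1 and mm10, while the matrix headers name software version 3.0.0, a difference left unresolved. The gene annotation behind the counts is not given in the sources used here.

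The filters kept cells of 500 or more genes whose mitochondrial UMIs did not exceed 10%. Doublets were not removed. Cells were classed by Trav11, then Cd8b1, then Cd3d, Cd3e or Cd3g (at least 1 UMI), and called by the Trbv segment with most UMIs. Shares have Clopper-Pearson intervals, odds ratios exact conditional ones, CPM exact Poisson ones and CPM ratios exact conditional binomial ones, with 0.5 UMIs added for the ratio. A count of 0 was set against 3 counts. A segment was compared where at least 5 called cells lay in both libraries together. Named were the trio, the other Trbv13 genes, Trbc1, Trbc2, segments with 5% of a class's calls in either library and segments called different. The members and lists were chosen with earlier results of these data known. All 37 members matched GENCODE vM21 on GRCm38, whose transcripts gave the printed sequences. The size and share rules were tested on simulated data. Alternatives covered the calls, classes, filters, depth, scaling, thinning and intervals. Intervals were computed with scipy 1.17.1, sequences compared with biopython 1.88, tables handled with pandas 2.3.3 and numpy 2.4.6, and figures drawn with matplotlib 3.10.9, in Python 3.11.15.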

Additional observations from a re-analysis of the deposited data

How the results depend on the processing

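Of 305 alternative values for 31 main comparisons, 279 kept their direction and side of the threshold (or stayed within the main interval or 1.5 times the count), and of 110 for 7 single segments 84 did. Some alternatives could not change a value, such as another CPM minimum for the Trbc genes, or a limit on other CD3+ cells for the Cd8b1+ class. These counts thus do not measure how stable the results are. The trio odds ratio of cKO over control in Cd8b1+ cells lost its call with the share of Trbv UMIs (0.628), at least 2 UMIs of Cd8b1 or CD3 (0.520), mitochondrial UMIs at most 5% (0.566), a wider interval (0.4996), a Cd8a UMI required (0.539) and Cd4+ cells left out (0.543). In that class 0 segments were called different with the share of UMIs, the wider interval or the Cd8a UMI, and 1 with at least 2 UMIs of Cd8b1, Trbv12-2 as higher in place of Trbv13-2 as lower. In other CD3+ cells 3 segments were called different in cells of at least 3000 UMIs, 0 in cells with another Trav segment (trio shares 36.2% and 29.5%), 1 at the wider interval and 2 without Cd4+ cells, where Trbv3 turned from 2.71 to 0.901. The trio odds ratio of Trav11+ over Cd8b1+ cells in control lost its call at 3000 UMIs (2.51) and with the wider interval (2.77), and that of Trav11+ over other CD3+ cells in cKO with the wider interval (4.07). Trbc2 met the size rule as lower in Trav11+ cells (0.661 and 0.651) and other CD3+ cells (0.634 and 0.632) under median-ratio scaling and without mitochondrial and ribosomal protein genes. The odds ratio of a cell with Trbc in Trav11+ cells lost its call when thinned to 1000 UMIs (0.662) or unthinned (0.276), and that of any Trbv in other CD3+ cells was called higher unthinned (1.87). The Cd8a and Cd4 alternatives were chosen after seeing the data. The number of called Trav11+ cells, 30 and 29, limits the comparisons in that class. No paired analysis was possible because there is 1 library per genotype.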

Other observations

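Segment use in subsets of the classes, all chosen after their values were seen, is given as values, and no difference among subsets or libraries was tested. In other CD3+ cells with Zbtb16, which encodes PLZF, the lineage factor of innate-like T cells, the trio took 76 of 135 control calls (56.3%) and 63 of 113 cKO calls (55.8%). With Klrb1c, which encodes NK1.1, it took 183 of 308 (59.4%) and 28 of 49 (57.1%). With Izumo1r it took 155 of 287 (54.0%) and 31 of 89 (34.8%). In cKO cells with Fxyd7 it took 121 of 222 (54.5%). With Foxp3, the regulatory T cell factor, it took 2 of 17 cKO calls.

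Within cKO Cd8b1+ cells, the trio took 18 of 108 calls in those with Gzmk, a granzyme gene of CD8 effector and memory cells (16.7%), and 17 of 58 in those without it (29.3%). In control these were 4 of 15 and 33 of 91 (36.3%). Among barcodes removed by the filters that held a CD3 UMI, the trio took 23 of 49 control and 9 of 15 cKO calls.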
